A study of Mus musculus with 8 samples.

Results

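The nuclear genes of the mitochondrial respiratory chain and ATP synthase were followed in Irak1-/- and wt CD4+ T cells. Members were taken by name: symbols beginning with Ndufa, Ndufb, Ndufc, Ndufs, Ndufv, Uqcr, Atp5 or Cox4 to Cox8, together with Sdha, Sdhb, Sdhc, Sdhd, Cyc1 and Cycs. The rule found 89 genes of 22180 with a probe set of their own. They comprised 34 genes of complex I, 8 complex I assembly factors with Ndufaf names, 4 genes of complex II, 8 of complex III, Cycs for cytochrome c, 17 of complex IV and 17 of ATP synthase. The names follow the prefix, and Ndufa4, counted here with complex I, is placed in complex IV by later work. Of the 89 members, 85 passed the filter on low levels, a mean log2 level of at least 3.90 over the 8 arrays. Ndufa4l2, Cox7b2, Cox8b and Cox8c lay under it. Another 8 symbols that match the rule, Cox6c, Ndufb2, Ndufb4, Ndufb4b, Ndufb4c, Ndufs6, Ndufs6b and Uqcr10, share their probe sets with other genes and were not analysed here.

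The series holds 8 Affymetrix arrays, 4 of Irak1-/- and 4 of wt cells, all labelled with the C57BL/6 strain. CD4+CD62L+ T cells of both genotypes, Irak1-/- cells with the CD45.2 allele and wt cells with the CD45.1 allele, were injected together into Rag1-/- mice, which make no T or B cells of their own but keep myeloid and NK cells. After 14 days each population was sorted from the mesenteric lymph nodes as CD3+CD4+ cells, with 2 recipients pooled, so that each of 4 experiments gave a pair of arrays that share recipients and batch. IRAK1 is a kinase that carries signals from Toll-like and IL-1 family receptors. The ages of the mice are not stated, and the genotypes differ in the CD45 allele as well as in Irak1.

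The respiratory chain passes electrons from NADH, at complex I, and from succinate, at complex II, through ubiquinone to complex III, cytochrome c and complex IV, where oxygen is reduced. Complexes I, III and IV pump protons out of the matrix, and ATP synthase uses the returning flow to make ATP. Most subunits are encoded in the nucleus, while a small set of core subunits is encoded by the mitochondrial genome, so a complete chain needs both. T cells that leave the resting state raise both glycolysis and respiration, and effector and memory cells differ in how much they draw on each.

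Many nuclear respiratory genes are known to carry promoter sites for NRF1, for the ETS factor GABP and for YY1, and these shared sequences are shown here because they tie members of different complexes together. RefSeq promoter windows of 300 bases, 250 before and 50 after the start of the gene in build GRCm38.p6, were found for 73 of the 89 members, as 78 windows. On either strand the letters GCGCATGC, the core of the NRF1 site, occurred in 13 of 78 windows (16.7%), against 2.71% of all 32851 promoter windows in the same table. The ETS letters CCGGAAG occurred in 19 windows (24.4%, against 8.86% of all windows). The YY1 letters AAGATGGC occurred in 10 (12.8%, against 2.75%), and the ERR alpha letters TCAAGGTCA in 2 (2.56%, against 0.423%). None of the 4 motifs contains another. In all, 36 members held at least 1 of the 4 motifs, and 5 held both the NRF1 and the ETS letters. One window of each complex and that of Cycs are given below, picked among windows that hold a match. They run 5′ to 3′ in the direction of the gene, with the NRF1 core and the ETS letters in capitals:
Ndufa11, chr17:56717512-56717811, plus strand: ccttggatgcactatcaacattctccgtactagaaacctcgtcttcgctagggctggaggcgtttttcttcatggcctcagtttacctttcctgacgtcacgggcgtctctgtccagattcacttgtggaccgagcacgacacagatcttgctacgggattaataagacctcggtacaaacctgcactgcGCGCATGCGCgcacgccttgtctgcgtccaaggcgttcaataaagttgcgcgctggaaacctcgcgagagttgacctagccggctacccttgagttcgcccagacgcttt
Sdhb, chr4:140961021-140961320, plus strand: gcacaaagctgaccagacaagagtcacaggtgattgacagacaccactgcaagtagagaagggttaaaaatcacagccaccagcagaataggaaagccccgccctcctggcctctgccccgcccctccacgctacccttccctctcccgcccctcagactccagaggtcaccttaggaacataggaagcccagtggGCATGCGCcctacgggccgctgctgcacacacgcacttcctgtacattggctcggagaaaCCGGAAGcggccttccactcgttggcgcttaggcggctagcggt
Uqcr11, chr10:80406772-80407071, minus strand: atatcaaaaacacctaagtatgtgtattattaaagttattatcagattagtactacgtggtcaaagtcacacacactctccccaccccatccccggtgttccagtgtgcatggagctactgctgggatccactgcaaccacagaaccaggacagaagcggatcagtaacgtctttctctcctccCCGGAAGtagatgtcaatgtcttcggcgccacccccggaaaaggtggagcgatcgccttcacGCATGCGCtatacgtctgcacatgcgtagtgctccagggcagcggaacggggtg
Cycs, chr6:50566520-50566819, minus strand: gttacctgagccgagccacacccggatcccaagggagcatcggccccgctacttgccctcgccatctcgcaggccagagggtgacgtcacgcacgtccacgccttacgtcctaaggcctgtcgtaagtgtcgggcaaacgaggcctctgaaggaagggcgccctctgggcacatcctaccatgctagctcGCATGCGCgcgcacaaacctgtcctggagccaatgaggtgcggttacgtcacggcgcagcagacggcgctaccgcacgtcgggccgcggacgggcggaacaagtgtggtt
Cox8a, chr19:7217567-7217866, minus strand: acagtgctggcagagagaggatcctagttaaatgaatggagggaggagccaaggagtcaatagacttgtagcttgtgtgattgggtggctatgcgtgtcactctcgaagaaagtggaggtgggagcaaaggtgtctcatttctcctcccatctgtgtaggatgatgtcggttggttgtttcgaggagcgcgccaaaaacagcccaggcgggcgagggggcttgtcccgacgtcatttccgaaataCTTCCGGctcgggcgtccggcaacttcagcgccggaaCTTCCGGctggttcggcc
Atp5k, chr5:108434350-108434649, minus strand: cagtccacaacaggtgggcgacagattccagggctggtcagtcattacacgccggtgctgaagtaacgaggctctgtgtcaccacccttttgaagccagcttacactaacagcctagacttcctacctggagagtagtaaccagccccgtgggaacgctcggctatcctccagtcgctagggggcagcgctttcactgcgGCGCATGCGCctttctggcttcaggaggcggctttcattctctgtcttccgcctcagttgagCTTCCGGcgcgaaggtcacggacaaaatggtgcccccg
In Cycs the NRF1 letters lay on the reverse strand with their first base 60 before the start. In Sdhb, which encodes the iron-sulfur subunit of complex II, they began 54 before the start, and an ETS match lay 6 after it. In Ndufa11 and Atp5k the NRF1 core read on both strands, offset by 2 bases, so that the capitals run on as one block, and in Uqcr11 it began 4 before the start. Cox8a had no NRF1 core and held the ETS letters at 2 places. A match is a description of these letters and was not tested as a site.

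**Figure D1:**
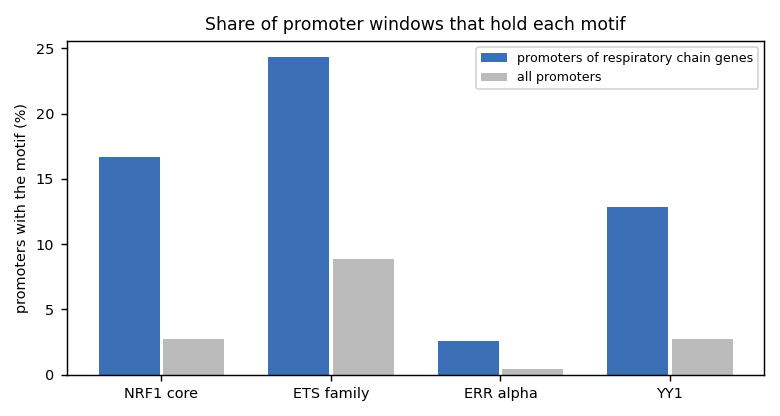
Percent of promoter windows (y axis) that hold each of 4 motifs on either strand (x axis), for 78 windows of respiratory chain genes (blue) and all 32851 windows in the RefSeq table (grey). All 4 motifs occurred in a larger share of the windows of the respiratory chain genes, 16.7% against 2.71% for the NRF1 core.

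The arrays were checked against their labels before the comparison. The Irak1 probe set had log2 levels of 6.93, 6.83, 6.997 and 6.61 on the arrays labelled Irak1-/-, against 7.16, 6.89, 6.64 and 6.39 on those labelled wt. The groups overlapped, with a difference of 0.07 (SE 0.129, limma adjusted p = 0.953). Neither the labels nor the files say which part of Irak1 is deleted or which part the probe set reads, so the genotypes, and with them every direction reported here, rest on the labels. T cell markers were present in both groups, and all 8 of the tested T cell markers missed the threshold, with Cd4 at 8.92 ± 0.253 in Irak1-/- and 9.04 ± 0.121 in wt arrays (log2 level, SD, n = 4 each). Myeloid markers moved with the genotype: 18 of 20 were tested, all 18 had a positive difference and 6 passed as higher, and their summed level (log2) was 10.51 to 11.29 on Irak1-/- arrays, against 9.60 to 9.80 on wt arrays. Cd14 and Ms4a7 were under the filter. The part of the myeloid signal in the values of the respiratory chain genes was not tested. The NK and CD8 T cell, B cell, erythroid and stromal lists had no called gene. The 7 tested NK and CD8 T cell markers had 3 positive and 4 negative differences, and their summed level (log2) was 9.58 to 9.82 on Irak1-/- arrays, against 10.01 to 10.26 on wt arrays, with Klrd1 at -0.55 (adjusted p = 0.401). Its part was likewise not tested. One array stood apart. Irak1-/- replicate 3 correlated with the other 7 at 0.957 to 0.970 across tested genes, so the values of each complex are also given without pair 3.

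No respiratory chain gene passed the test between Irak1-/- and wt cells. The counts were 0 of 85 members called at an adjusted p under 0.05 and 10 of 13308 genes (0.0751%). The median difference over the members, Irak1-/- minus wt on the log2 scale, was -0.02, against -0.03 over all tested genes, and the differences ran from -0.39 for Cox6b2 to 0.25 for Ndufaf2. The precision was high enough to bound most of them: the 95% confidence interval lay within a 1.5-fold change in either direction (0.585 on the log2 scale) for 82 of 85 members (96.5%), a share of 88.1% over all tested genes. The other 3 intervals reached past a 1.5-fold lower level in Irak1-/- cells, -0.75 to 0.11 for Ndufa11, -0.59 to 0.16 for Ndufb3 and -0.81 to 0.03 for Cox6b2. In bulk RNA, a smaller share of cells that express a gene and less RNA per cell cannot be told apart.

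**Figure D2:**
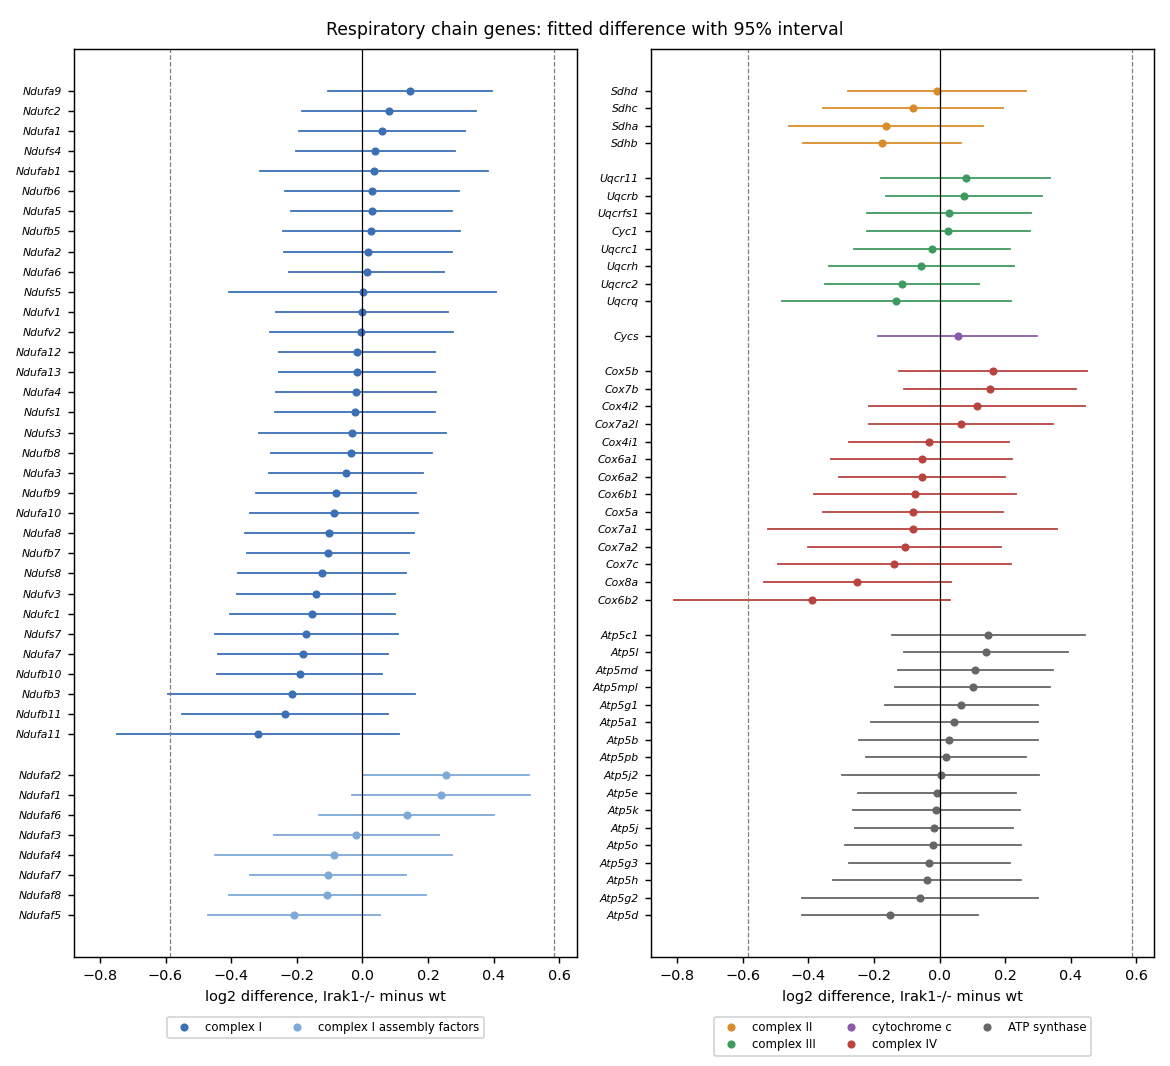
Fitted log2 difference, Irak1-/- minus wt (x axis), for each of the 85 tested members, with its 95% confidence interval from limma (n = 4 pairs), coloured by complex and sorted within it; dashed lines mark a 1.5-fold change. The interval of Ndufaf2 just misses 0, those of all the others include it, and 82 stay inside the dashed lines.

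Counts without adjustment were near or under the background. At an unadjusted p under 0.05 there was 1 of 85 members (1.18%), Ndufaf2, against 6.7% of all tested genes. All 4 pairs had a higher Irak1-/- level for 5 members, where 5.26% of all genes did, and a lower one for 9 members, where 8.91% did. The groups did not overlap for 2 of 85 members, Atp5md and Ndufa7, against 3.04% of genes. Of the 85 differences 32 were positive and 53 negative, 37.6% positive against 41.9% over all genes. After median centring the members split into 43 positive and 42 negative, while 48.1% of all genes were positive. Without pair 3 they split into 49 and 36, beside 46.0% positive over all genes. Without the Irak1-/- array of replicate 3, in a fit without pairs, they split into 53 and 32, beside 47.8% over all genes.

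Complex I takes electrons from NADH, and its core subunits carry the flavin and the iron-sulfur clusters while accessory subunits surround them. Of its 33 tested genes, 11 had a positive and 22 a negative difference, with a median of -0.02 and none called. Without pair 3 the split was 14 and 19 and the median -0.01. The 6 nuclear core subunits that were tested, Ndufs1, Ndufs3, Ndufs7, Ndufs8, Ndufv1 and Ndufv2, had a median of -0.03, and the 27 accessory genes had a median of -0.02. Among the core subunits Ndufv1, which binds NADH, was at 6.83 ± 0.148 in Irak1-/- and 6.83 ± 0.055 in wt arrays (SD, n = 4 each). Ndufs7, which holds the last iron-sulfur cluster before ubiquinone, averaged 7.15 ± 0.146 in Irak1-/- and 7.32 ± 0.210 in wt arrays. Neither difference passed the test.

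Ndufa11, an accessory subunit of the membrane arm whose promoter is printed above, had the lowest difference of complex I. Its log2 levels were 10.23, 10.25, 9.16 and 10.20 on Irak1-/- arrays, against 10.32, 10.27, 10.29 and 10.23 on wt arrays. Only Irak1-/- replicate 3 lay apart; the other 7 arrays fell within 10.20 to 10.32. The difference was -0.32 (SE 0.190, adjusted p = 0.852) and came to -0.05 without pair 3. Ndufb10, also of the membrane arm, had levels of 8.60, 8.56, 8.21 and 8.53 on Irak1-/- arrays, against 8.83, 8.58, 8.58 and 8.67 on wt arrays. It was lower in 4 of 4 pairs, with a difference of -0.19 (SE 0.111, adjusted p = 0.841), with groups that overlapped narrowly. Ndufb11 was at 6.64, 6.38, 6.24 and 6.56 in Irak1-/-, against 6.47, 6.54, 6.63 and 7.13 in wt arrays, a difference of -0.24 (adjusted p = 0.843) carried mainly by pairs 3 and 4. Ndufb3 behaved like Ndufa11: its levels were 7.74, 7.83, 6.89 and 7.68 in Irak1-/-, against 7.94, 7.75, 7.74 and 7.57 in wt arrays. Its difference of -0.21 came to 0.00 when pair 3 was left out.

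Ndufa7, an accessory subunit of the matrix arm, was the complex I gene whose groups did not overlap. It had 7.85, 7.997, 7.75 and 8.02 in Irak1-/-, against 8.18, 8.05, 8.09 and 8.03 in wt arrays, the highest Irak1-/- array lying just under the lowest wt array. The difference was -0.18 (SE 0.114, adjusted p = 0.862), or 0.881 as a fold. Ndufa9, which sits where the 2 arms of the complex meet, was the complex I gene with the highest difference, 0.14 (SE 0.110, adjusted p = 0.893), and the only one higher in 4 of 4 pairs. Ndufc1 (-0.15) and Ndufv3 (-0.14) were lower in 4 of 4 pairs and did not pass either. Ndufa4 had a difference of -0.02. With Ndufa4 counted in complex IV, the median became -0.03 for complex I and -0.05 for complex IV.

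Assembly factors help build complex I and are not part of it when finished. Of the 8 with Ndufaf names 3 had a positive and 5 a negative difference, median -0.05, and without pair 3 the split was 5 and 3 with a median of 0.05. Ndufaf2, which acts late in assembly and is a paralogue of the subunit Ndufa12, was the member with the smallest p. Its levels were 6.97, 6.90, 6.59 and 6.91 on Irak1-/- arrays, against 6.70, 6.58, 6.55 and 6.52 on wt arrays. It was higher in 4 of 4 pairs, and the groups overlapped only through Irak1-/- replicate 3. The difference was 0.25 (SE 0.111, limma adjusted p = 0.746), a fold of 1.19. Ndufaf1, part of an early assembly complex of the inner membrane, had 6.60, 6.59, 6.58 and 6.66 in Irak1-/-, against 6.64, 6.17, 6.40 and 6.26 in wt arrays, a difference of 0.24 (adjusted p = 0.792). Here the Irak1-/- arrays lay close together and wt replicate 1 lay among them. Ndufaf5, which hydroxylates a core subunit during assembly, went the other way in 4 of 4 pairs, with a difference of -0.21 (adjusted p = 0.812), and Ndufaf6 had 0.13. Of 9 tested assembly factors of complex I under other names, 6 had a positive difference and none passed, with Timmdc1 at 0.12, Foxred1 at -0.15 and Nubpl at -0.07.

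**Figure D3:**
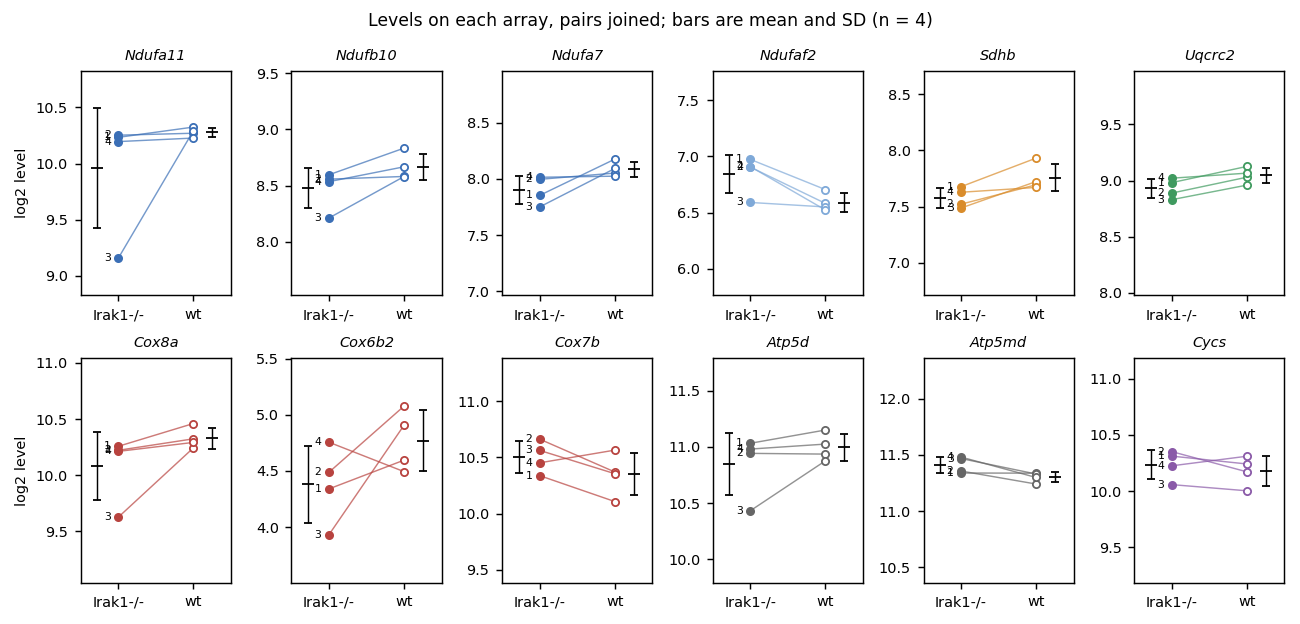
Log2 level (y axis, a separate range of equal length for each gene) of 12 members on each array, Irak1-/- left and wt right, with replicate numbers, lines joining pairs and bars for mean and SD (n = 4). In Ndufa11, Cox8a and Atp5d, Irak1-/- replicate 3 lies below the other 7 arrays, while in Ndufaf2 all pairs slope down to wt.

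Complex II, which also belongs to the tricarboxylic acid cycle as succinate dehydrogenase, was the complex with the lowest median, -0.12, and all 4 of its genes had a negative difference. Sdhb had 7.68, 7.52, 7.49 and 7.63 on Irak1-/- arrays, against 7.93, 7.69, 7.72 and 7.67 on wt arrays. It was lower in 4 of 4 pairs, and the groups overlapped only in that Irak1-/- replicate 1 exceeded wt replicate 4 by little. Its difference was -0.18 (SE 0.106, adjusted p = 0.857). Sdha, the flavoprotein that oxidizes succinate, was at 8.34, 8.24, 7.92 and 8.38 in Irak1-/-, against 8.43, 8.48, 8.41 and 8.22 in wt arrays, a difference of -0.16 (adjusted p = 0.899). The membrane anchors Sdhc (-0.08) and Sdhd (-0.01) were each lower in 2 of 4 pairs. Without pair 3 the complex II median was -0.06.

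Complex III hands electrons from ubiquinol to cytochrome c. Its 8 genes split evenly, 4 positive and 4 negative, with a median of 0.00, and without pair 3 they were 6 and 2 with a median of 0.06. Cyc1, the cytochrome c1 that passes the electron on, averaged 8.06 ± 0.131 in Irak1-/- and 8.03 ± 0.058 in wt arrays (SD, n = 4 each), and Uqcrfs1, the Rieske iron-sulfur protein, averaged 7.30 ± 0.066 in Irak1-/- and 7.27 ± 0.152 in wt arrays. Uqcrc2, a core protein, had 8.98, 8.89, 8.83 and 9.02 in Irak1-/-, against 9.13, 9.03, 8.96 and 9.07 in wt arrays, lower in 4 of 4 pairs, with a difference of -0.11 (SE 0.103, adjusted p = 0.910). Uqcrb was higher in 4 of 4 pairs by 0.08 (adjusted p = 0.948), and Uqcr11 had the same difference with 2 pairs each way. In pair 3 the Uqcrb difference was only 1.3e-05, at 9.32 on both arrays. Uqcrq, a small subunit, had 8.93, 8.94, 8.10 and 8.85 in Irak1-/-, against 8.76, 8.84, 8.79 and 8.96 in wt arrays. Its difference of -0.13 became 0.05 without pair 3. Cycs, the mobile carrier between complexes III and IV and also a trigger of apoptosis once released, had 10.31, 10.35, 10.06 and 10.22 in Irak1-/-, against 10.24, 10.17, 10.002 and 10.31 in wt arrays. The groups overlapped, and the difference was 0.05 (SE 0.107, adjusted p = 0.955).

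Complex IV reduces oxygen, and several of its subunits exist in a common and a tissue-specific form. Of 14 tested genes 4 had a positive and 10 a negative difference, median -0.06. Without pair 3, 9 were positive and 5 negative, median 0.03. Cox8a, the common form of subunit 8, had 10.26, 10.22, 9.63 and 10.21 on Irak1-/- arrays, against 10.46, 10.32, 10.24 and 10.29 on wt arrays. It was lower in 4 of 4 pairs, with a difference of -0.25 (SE 0.125, adjusted p = 0.792), and the difference was -0.13 without pair 3. Cox7b had 10.34, 10.66, 10.56 and 10.45 in Irak1-/-, against 10.11, 10.37, 10.35 and 10.56 in wt arrays, a difference of 0.15 (adjusted p = 0.891) with overlapping groups. Its second probe set had the opposite sign, and the mean of the 2 gave -0.01. Cox5b, a subunit on the matrix side, was at 9.92, 10.16, 9.53 and 9.84 in Irak1-/-, against 9.73, 9.69, 9.68 and 9.69 in wt arrays. Its wt arrays lay close together while the Irak1-/- arrays lay on both sides of them, and the difference was 0.16 (adjusted p = 0.898).

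None of the isoforms passed the test. Cox4i1 had a difference of -0.03 and Cox4i2, the form known from lung and from low oxygen, 0.12. Cox6a1 and the muscle form Cox6a2 both had -0.05. Cox6b1 had -0.07, and Cox6b2, known from testis, had 4.34, 4.49, 3.93 and 4.76 in Irak1-/-, against 4.60, 5.08, 4.91 and 4.49 in wt arrays. That difference of -0.39 (SE 0.184, adjusted p = 0.778) was the lowest of all members, with overlapping groups near the filter value, and was -0.19 without pair 3. Cox7a1, the heart and muscle form, had -0.08, Cox7a2 had -0.11 and Cox7a2l had 0.07. Of the genes under the filter, Cox8b ranged from 2.36 to 3.10 in Irak1-/- and from 3.04 to 3.78 in wt arrays, and Cox8c from 2.18 to 2.53 in Irak1-/- and from 2.34 to 2.66 in wt arrays. Cox7b2 ranged from 1.43 to 2.37 in Irak1-/- and from 1.51 to 2.11 in wt arrays, and Ndufa4l2 from 3.11 to 3.40 in Irak1-/- and from 2.96 to 3.30 in wt arrays. These were not tested.

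ATP synthase turns the proton gradient into ATP. Of its 17 genes 9 had a positive and 8 a negative difference, the median was 0.00, and every interval lay within a 1.5-fold change. Without pair 3, 14 were positive and 3 negative, with a median of 0.07. The catalytic head subunits Atp5a1 (0.04) and Atp5b (0.03) had nearly equal levels in both groups, with Atp5b at 9.81 ± 0.240 in Irak1-/- and 9.79 ± 0.092 in wt arrays (SD, n = 4 each). Atp5c1, the rotating shaft, had the highest difference, 0.15 (adjusted p = 0.909), and Atp5d, also of the central stalk, the lowest, -0.15 (adjusted p = 0.898). Atp5d had 11.03, 10.94, 10.43 and 10.98 on Irak1-/- arrays, against 11.15, 10.94, 10.88 and 11.02 on wt arrays, and its difference was -0.05 without pair 3. Atp5md, a small subunit tied to the dimer of the enzyme, had 11.34, 11.36, 11.47 and 11.48 in Irak1-/-, against 11.34, 11.24, 11.33 and 11.30 in wt arrays. Its groups did not overlap, the lowest Irak1-/- array barely exceeding the highest wt array, and the difference was 0.11 (SE 0.104, adjusted p = 0.918). Atp5mpl was likewise higher in 4 of 4 pairs by 0.10, and Atp5l had 0.14. Subunit c, which forms the turning ring, is encoded by Atp5g1 (0.07), Atp5g2 (-0.06) and Atp5g3 (-0.03). Atp5g1 lay near the filter value, with a wt mean of 4.40, against 10.81 for Atp5g2 and 9.73 for Atp5g3. Atp5g2 was at 10.98, 10.89, 10.23 and 10.89 in Irak1-/-, against 10.65, 10.93, 10.86 and 10.79 in wt arrays, and its difference was 0.13 without pair 3.

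Across complexes, the members shared a low level on 1 array. Each gene's level was set against its own mean over the 8 arrays. On Irak1-/- replicate 3 the members averaged -0.20, while the other Irak1-/- arrays averaged 0.05, 0.04 and 0.04 and the wt arrays 0.09, 0.01, -0.01 and -0.03. The average on that array was -0.27 for complex IV, -0.23 for complex II, -0.20 for complex I, -0.17 for ATP synthase and -0.15 for complex III. It was the lowest of 8 arrays for 50 of 85 members (58.8%), against 29.4% of all tested genes and 35.5% of the genes past the 60th percentile of level. This was not particular to the members. Shares were 95.7% for cell cycle genes, 75.0% for T cell markers, 66.7% for nucleotide and phosphate carriers and 63.6% for supercomplex and cristae factors. Other lists had lower shares, such as 43.8% for the tricarboxylic acid cycle and 14.3% for mitochondrial DNA upkeep and transcription. On the same array cell cycle genes averaged -0.52, T cell markers -0.18 and myeloid markers 0.85 against their own means, and the part of any of these in the members' values was not tested. A smaller departure was seen for complex I on wt replicate 1, which averaged 0.16 while the other wt arrays averaged -0.02, -0.02 and -0.01.

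**Figure D4:**
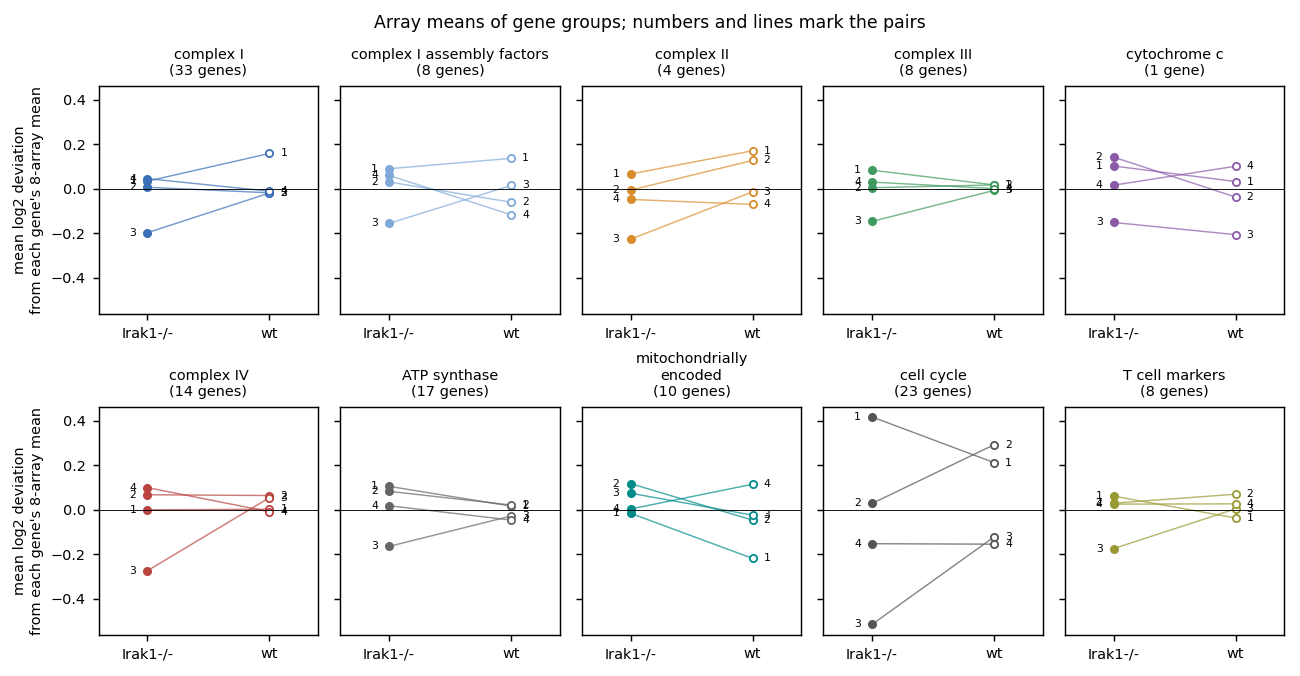
Mean log2 deviation of each gene group from its genes' 8-array means (y axis), for each array, Irak1-/- left (filled) and wt right (open), with replicate numbers and lines joining pairs. Irak1-/- replicate 3 is the lowest array in complexes I to IV and ATP synthase, with -0.27 for complex IV, and lies at 0.07 for the mitochondrially encoded subunits.

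Within pairs, the members were lowest in pair 3. The mean difference of the members was -0.03 in pair 1, 0.03 in pair 2, -0.19 in pair 3 and 0.07 in pair 4. For complex IV it was 0.00 in pairs 1 and 2, -0.33 in pair 3 and 0.11 in pair 4. Complex I was negative in pair 1 as well, at -0.12, and ATP synthase was positive outside pair 3, at 0.09, 0.06 and 0.06. Pair 3 held the lowest of the 4 differences for 44 of 85 members (51.8%), against 33.9% of all tested genes.

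The subunits encoded by the mitochondrial genome had small positive differences. Of 13 such protein genes 10 had a probe set of their own, and COX2, ATP6 and ATP8 were not analysed here. All 10 had a positive difference, with a median of 0.09 and a range of 0.05 to 0.14, none called. ND2, of complex I, had 11.33, 11.50, 11.47 and 11.39 in Irak1-/-, against 11.09, 11.26, 11.30 and 11.47 in wt arrays, a difference of 0.14 (SE 0.111, adjusted p = 0.898). CYTB, the cytochrome b of complex III, was higher in 4 of 4 pairs by 0.10 (adjusted p = 0.925), and COX3, of complex IV, had 0.11. The 10 probe sets read neighbouring parts of 1 genome and are not independent, and their shared sign held in 3 pairs, with pair means of 0.20, 0.16, 0.10 and -0.11. Irak1-/- replicate 3 was the lowest array for 0 of the 10, which averaged 0.07 there. The lowest was wt replicate 1, at -0.22, the array on which complex I averaged 0.16. The nuclear members and the mitochondrially encoded subunits were not compared by a test.

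**Figure D5:**
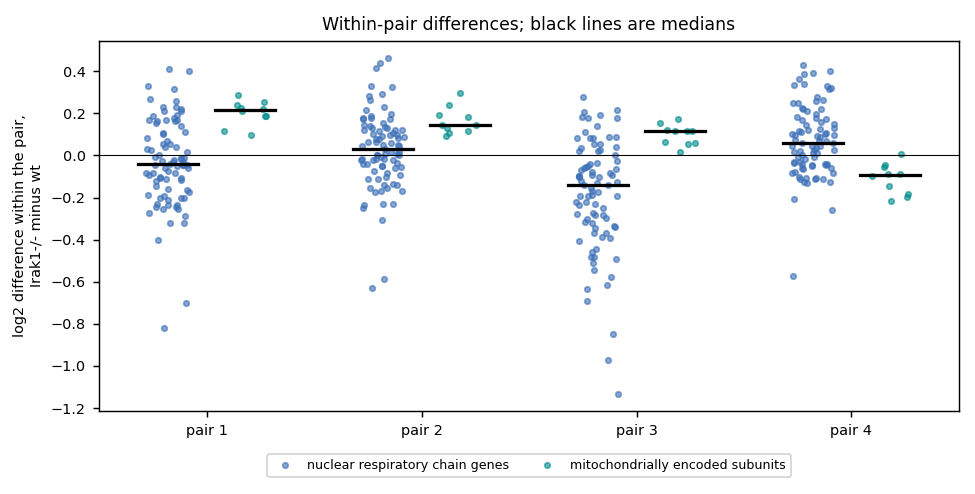
Log2 difference within each pair, Irak1-/- minus wt (y axis), for 85 nuclear members (blue) and 10 mitochondrially encoded subunits (teal), a point per gene, with black lines at the medians. Nuclear members lie lowest in pair 3, where their mean is -0.19, and mitochondrially encoded subunits in pair 4, where theirs is -0.11.

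Genes around the chain were described by lists. Of 13 tested regulators of mitochondrial biogenesis, 2 had a positive and 11 a negative difference, with a median of -0.12. Lower in 4 of 4 pairs were 5 of them (38.5%), against 8.91% of all tested genes, and these shares were not compared by a test. Ppargc1b, a coactivator of respiratory genes, had -0.26 (adjusted p = 0.746), Gabpa, the DNA-binding part of the ETS factor GABP, -0.21 (adjusted p = 0.806), and the deacetylase Sirt1 -0.17 (adjusted p = 0.862). None passed the test, and without pair 3 the median was -0.03, again with 2 positive and 11 negative. Among the members, those with the NRF1 core in the promoter had a median difference of -0.05 (13 genes), against -0.02 for those with a window that lacked it (58 genes). Those with the ETS letters had -0.03 (19 genes), against -0.02 for the others (52 genes).

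Of 14 genes of mitochondrial DNA upkeep and transcription 4 were positive and 10 negative, with a median of -0.07. Of these, 6 (42.9%) were lower in 4 of 4 pairs, against 8.91% of all tested genes, again without a test. Without pair 3 the split was 3 and 11 and the median -0.08. Mterf1a (-0.26, adjusted p = 0.741), Mgme1 (-0.23) and Mterf3 (-0.22) had the smallest p values. Other enzymes feed electrons to ubiquinone beside complexes I and II. Of 6 tested, Gpd2, the glycerol-3-phosphate dehydrogenase of the inner membrane, averaged 5.78 ± 0.306 in Irak1-/- and 6.09 ± 0.142 in wt arrays (SD, n = 4 each), lower in 4 of 4 pairs, with a difference of -0.30 (adjusted p = 0.660). Etfb, an electron carrier from fatty acid oxidation, had -0.24 and Dhodh, of pyrimidine synthesis, 0.07. The 6 genes had a median of -0.02, with 2 positive and 4 negative. Without pair 3 the median was -0.06, with 1 positive and 5 negative.

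The remaining lists had no called gene. The 16 tested genes of the tricarboxylic acid cycle had a median of -0.02, with Suclg1 at 0.14 and higher in 4 of 4 pairs, Cs at -0.15 and Idh3g at -0.12. The 11 supercomplex and cristae factors had a median of -0.09, with Higd1a at -0.37, Apoo at 0.27 and Apool at -0.23, and the median was 0.00 without pair 3. Assembly factors of complexes II and III (8 tested, median -0.02) included Uqcc2 at -0.26 and Bcs1l at 0.24, both of complex III, and Sdhaf2 at 0.15. The 20 assembly factors of complex IV had a median of -0.01, with Cmc2 at -0.26, Cox19 at 0.23 and Cox14 at -0.22. The 5 assembly factors and inhibitor of ATP synthase had a median of -0.02, with Tmem242 at 0.23, Tmem70 at 0.22 and Atpaf2 at -0.13. Among 6 carriers and channels that move nucleotides and phosphate the median was 0.01, with Vdac3 at -0.21, Slc25a5 at 0.20 and Slc25a4 at 0.04. The 23 cell cycle genes had a median of -0.10, 4 positive and 19 negative, with Bub1b at -0.39, Kif20a at -0.31 and Tpx2 at -0.26, and the median was -0.01 without pair 3. Without pair 3 the other medians of these remaining lists ran from -0.03, for the assembly factors of complexes II and III, to 0.10, for those of ATP synthase.

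Repeat measurements on the arrays showed the same scale of difference. The 10 members with more than 1 probe set had 13 further ones, with differences from -0.27 to 0.28, and 4 of these, in Cycs, Cox7b and Ndufa12, had the opposite sign to the probe set used. A pair of the Cycs probe sets held identical values. Cycs has processed copies elsewhere in the genome, and probe sets of such genes can read more than 1 locus. Of the members, 8 lie on chromosome 1 or X, which carry Ptprc and Irak1. No member was called on any chromosome, so the calls cannot set these 8 apart from the others.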

How the data were processed

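Per the labels, total RNA of the sorted T cells was put on arrays with a biotin label and the standard Affymetrix protocol. As deposited by the authors, the values are log2 levels for 41345 probe sets, and how background, summarization and normalization were done is not known here. The values ran from 0.681 to 14.0, with array medians between 4.25 and 4.31, and precision depends on having only 4 arrays a group.

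Probe sets were named from the platform annotation, with symbols updated by gene identifier. Of these, 23521 had 1 symbol, 1814 several and 16010 none. Each gene was represented by its 1-symbol probe set with the highest mean, and 13308 of 22180 genes lay at or above the 40th percentile of mean level. The test of Irak1-/- against wt arrays used lmFit and eBayes of limma (version 3.58.1, R 4.3.3), two-sided, with batch as a fixed block, with Benjamini-Hochberg adjustment over all 13308 genes and a threshold of 0.05. The procedure was also run on simulated data with independent noise and added changes larger than any difference of a member. These data had no shift shared by the genes of an array, so that run does not bear on such shifts. The pairs come from the labels (batch and shared recipients), and deviations from the group means of arrays with the same number correlated at 0.185, 0.143, 0.200 and 0.080. Arrays with different numbers correlated at -0.222 to 0.226, the highest being Irak1-/- replicate 1 with wt replicate 2. Irak1-/- replicates 2, 3 and 4 each correlated most with the wt array of the same number. Wt replicates 2 and 4 correlated more with an Irak1-/- array of another number. These correlations therefore single out the labelled pairs only in part.

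The members, the lists, the motifs and the alternatives were chosen with earlier results of these data known. Lists are described by counts and medians, with no test. The genes named are, for each complex, the 4 with the smallest p, the 5 highest and 5 lowest differences, the isoform families, Irak1 and, from each list, the 3 with the smallest p. Further members are named as core subunits or because their 4 pairs had one sign or their groups did not overlap, and were picked after their values were seen. The comparison was repeated without the block, with batch as a random effect, after quantile normalization or centring arrays on their medians, without the level filter or with it at the 60th percentile, with probe sets of a gene averaged or all tested, with eBayes trend and robust options, and without each pair or Irak1-/- replicate 3. A comparison of isoform proteins was not made.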

Additional observations from a re-analysis of the deposited data

Results flagged for a closer look

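In groups of 4 arrays, a value was taken as standing apart when its gap to the nearest array passed Dixon's critical share of the group's range, which chance gives in about 1 of 20 groups. Of 118 groups tested, over levels of the named members and group means, 13 held such an array. In 9 of the members it was Irak1-/- replicate 3, lower than the other Irak1-/- arrays: Atp5d at 10.43, Atp5g2 at 10.23, Cox7a2 at 9.96, Cox8a at 9.63, Ndufa11 at 9.16, Ndufb10 at 8.21, Ndufb3 at 6.89, Ndufs7 at 6.94 and Uqcrq at 8.10 (log2 levels). The same array stood apart for the mean deviation of all members, -0.196, and of complex I, -0.197. Among wt arrays, replicate 3 was high for Uqcrb, at 9.32, and replicate 1 was high for the mean deviation of complex I, at 0.159. These groups share arrays and are not independent. Members were named partly by their p values and differences, so the 1 of 20 rate, which holds for unselected groups, does not apply to them.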

How the results depend on the processing

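No member was called under any of the alternatives run, with a lowest adjusted p among members between 0.643 and 0.968. The blocked design was the main one, and without the replicate block the count of called genes was 11, with 0 members. All 10 mitochondrially encoded subunits kept a positive difference in every alternative, though 9 of them were negative within pair 4. The alternatives reuse the same arrays and are not independent support for that sign. Over all genes, 14 were called higher and 2 lower with a random block, 19 and 2 after median centring, 2 lower with the filter at the 60th percentile and 3 lower with trend and robust settings. Leaving out a pair or the array gave 6 to 16 called higher, the most without pair 1, where the main comparison gave 9 higher and 1 lower. Members with an unadjusted p under 0.05 numbered 0 without the level filter, 2 with trend and robust settings and 0 to 2 on leaving out pairs, and those higher in 4 of 4 pairs numbered 3 after quantile normalization. The median of the assembly factors of complexes II and III ran from -0.0283 to 0.0706. Some small differences changed sign: Sdhd was 0.00106 and Ndufv1 0.00444 after quantile normalization, and they were 0.0148 and 0.0211 after median centring, which also gave 0.00309 for Cd22, 0.00279 for Ndufa4 and 0.0122 for Slc4a1, and Cox7b was -0.0116 as the mean of its probe sets. On leaving out pairs or the array, differences of genes named in the text that changed sign covered these ranges. Among members they were Atp5a1 (-0.01001 to 0.12), Atp5b (-0.0678 to 0.12), Atp5g2 (-0.19 to 0.13), Atp5g3 (-0.0847 to 0.0171), Cox4i1 (-0.0779 to 0.0194), Cox6a1 (-0.15 to 0.0438), Cox6b1 (-0.17 to 0.0645), Cox7a1 (-0.26 to 0.16), Cox7a2 (-0.16 to 0.0402), Cyc1 (-0.0373 to 0.0652), Ndufa4 (-0.0689 to 0.0148), Ndufv1 (-0.04202 to 0.0914), Sdhc (-0.15 to 0.0222), Sdhd (-0.0692 to 0.0725), Uqcrfs1 (-0.0334 to 0.0739) and Uqcrq (-0.23 to 0.06995). Among other genes they were Cd22 (-0.17 to 0.0239), Cd4 (-0.21 to 0.0158), Col1a1 (-0.27 to 0.12), Col1a2 (-0.15 to 0.0556), Cs (-0.22 to 0.0358), Dhodh (-0.0222 to 0.18), Foxred1 (-0.36 to 0.0301), Idh3g (-0.18 to 0.00529), Irak1 (-0.0258 to 0.17), Nubpl (-0.21 to 0.0641), Pax5 (-0.0204 to 0.24), Slc25a4 (-0.0193 to 0.0726) and Slc4a1 (-0.0708 to 0.05002). None of these passed the test in either direction. The cause was not tested. The median SE of a member's log2 difference was 0.113, which limits what 4 pairs can resolve.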
